A study of Mus musculus with 20 samples.

Results

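The 8 genes described here encode the PGC-1 coactivators and the regulators of mitochondrial biogenesis that work with them: Ppargc1a, Ppargc1b, Pprc1, Perm1, Esrra, Esrrg, Nrf1 and Tfam. They were taken by symbol from a table of 53311 gene rows, a choice made with earlier results of these data known. All 8 were among the 13560 genes that passed the filter on low counts. RNA was sequenced from 20 samples of mouse gastrocnemius, a calf muscle made mostly of fast fibres, in 4 groups of 5. According to the labels, every animal had the genotype Cre+:iMSBmal1 fl/fl, so the controls carried the Cre and the floxed Bmal1 alleles too. The treatment was either Vehicle or iMSBmal1KO, the latter standing for loss of skeletal muscle Bmal1 (gene symbol Arntl), a transcription factor of the circadian clock. Muscles were taken at zeitgeber time (ZT) 13 from unexercised animals, or 1 h after a treadmill run of 30 min. The labels used here do not give the age, the sex, the agent that induced the knockout or the promoter that drives Cre. For the exercised knockout samples the description field mentions training, whereas title and treatment name acute exercise, the reading used here.

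PGC-1 coactivators do not bind DNA themselves. They dock on transcription factors, among them the oestrogen-related receptors and nuclear respiratory factors, and raise the transcription of genes for oxidative phosphorylation, fatty acid oxidation and mitochondrial DNA maintenance. In skeletal muscle Ppargc1a is known as an early response gene of exercise and as a gene of slow, oxidative fibres. Ppargc1b and Pprc1 encode its relatives PGC-1beta and PRC. Perm1 encodes a muscle protein induced by PGC-1 and the oestrogen-related receptors, Esrra and Esrrg encode those receptors (ERRalpha and ERRgamma), Nrf1 encodes nuclear respiratory factor 1, and Tfam encodes the factor that packages and transcribes mitochondrial DNA.

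The promoters of Ppargc1a and Esrra are shown because these were the members that passed a test, for exercise and for genotype, once the slow-fibre score was in the model. Both windows run 5′ to 3′ on the minus strand of build GRCm38.p6, from 250 to 11 bases before the RefSeq start site, at chr5:51567736-51567975 for Ppargc1a and chr19:6921819-6922058 for Esrra. Capitals mark the only match found in each.

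Ppargc1a: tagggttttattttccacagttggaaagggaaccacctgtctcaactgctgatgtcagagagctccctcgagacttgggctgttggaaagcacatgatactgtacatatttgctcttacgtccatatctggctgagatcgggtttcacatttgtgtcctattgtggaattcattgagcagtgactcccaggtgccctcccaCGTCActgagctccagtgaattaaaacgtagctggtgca

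Esrra: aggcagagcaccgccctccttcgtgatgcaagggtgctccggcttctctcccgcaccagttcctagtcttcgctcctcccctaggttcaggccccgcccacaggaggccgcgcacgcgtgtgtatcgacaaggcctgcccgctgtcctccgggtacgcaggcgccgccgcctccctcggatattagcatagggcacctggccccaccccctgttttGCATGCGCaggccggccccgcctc

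In Ppargc1a the capitals are TGACG read on the opposite strand, the core of the cAMP response element (CRE) that CREB binds, 49 bases before the start. In Esrra they are GCATGCGC, a core motif of NRF1, 34 bases before the start. RefSeq promoters of 300 bases (250 before to 50 after the start) were searched for 7 of the 8 genes, 11 windows in all. Ppargc1b was not searched. The matches above were the only ones of either motif in these windows. Among all 32851 such promoters, 20.8% held TGACG and 2.71% held GCATGCGC on either strand. None of the 11 windows held the E-box CACGTG bound by BMAL1 (7.15% of all promoters did), the whole CRE TGACGTCA (1.79%, which contains TGACG) or the ERR element TNAAGGTCA (1.28%). Matches describe these letters in this window and do not show a site in use.

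Levels are given as CPM, counts set to a common library total with TMM scaling (trimmed mean of M-values). Per kilobase of exon, Perm1 was the highest of the 8 at 64.3 CPM per kb over all 20 libraries. It was followed by Esrra at 25.2, Ppargc1a at 11.04, Tfam at 8.61, Pprc1 at 3.33, Esrrg at 3.12, Ppargc1b at 1.39 and Nrf1 at 1.01 CPM per kb. Counts per library ran from 27 to 83 for Ppargc1b and from 1222 to 4082 for Perm1, the lowest and highest of the 8 genes. Within groups, Esrrg and Ppargc1a were among the most variable of all genes tested. The standard deviation of their log2 CPM was 1.08 and 0.90, at percentiles 98.7 and 98.0 of the 13560 genes, whose median was 0.27. Tfam was among the steadiest at 0.09 (percentile 1.19).

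Libraries had 8045154 to 11269812 counts, and mitochondrial-genome transcripts took 7.55% to 14.96% of them. The mean of the targeted gene Arntl was not lower in the knockout groups. Resting means were 12.3 ± 2.39 CPM for vehicle against 14.5 ± 1.94 CPM for knockout-labelled libraries, and exercised means were 14.3 ± 5.71 against 16.4 ± 4.15 CPM (SD, n = 5 each). Groups are therefore called knockout-labelled, and each genotype direction rests on the labels. Markers of fast fibres dominated every library, with 34705 to 93491 CPM of Myh4. The content of slow fibres differed widely, from 0 to 1236 CPM of Myh7, the slow myosin heavy chain. A slow-fibre score was computed per library as the mean log2 CPM of 7 markers (Myh7, Myl2, Myl3, Tnnt1, Tnnc1, Tnni1, Atp2a2), all detected in every group. It ran from -0.41 to 8.65, and 3 libraries lay under 1, 1 of exercised vehicle and 2 of exercised knockout-labelled muscle. The summed level of the 7 markers ranged from 76.3 to 2412 CPM in vehicle at rest, 35.8 to 2318 CPM in vehicle after exercise, 210 to 3538 CPM in knockout-labelled muscle at rest and 47.4 to 2385 CPM after exercise. Across 44 exact two-sided permutation tests of 10 marker scores and the mitochondrial share, the lowest adjusted p was 0.349. It belonged to the fast-fibre score at rest, with means of 13.19 in knockout-labelled and 13.025 in vehicle libraries, without overlap. Its unadjusted p of 0.00794 is the smallest these permutation tests can give. Over 44 tests a single score at that p cannot pass, so equal tissue make-up was not shown. Ucp1, which defines brown fat, was at 0 counts in all libraries. In bulk muscle, fewer slow fibres and less RNA per slow fibre cannot be told apart.

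**Figure D1:**
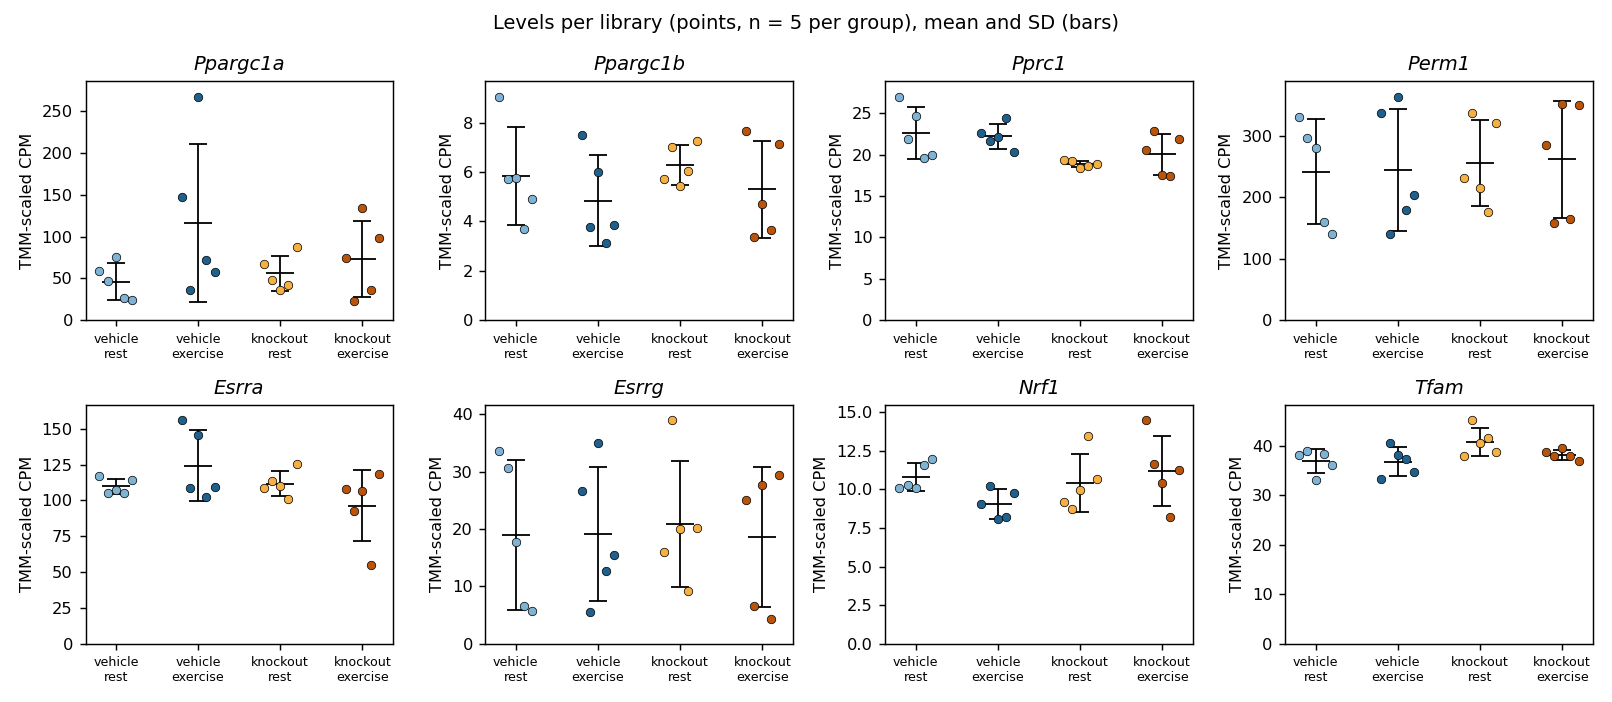
TMM-scaled CPM (y axis) of the 8 genes in the 4 groups (x axis, knockout meaning knockout-labelled). Points are libraries (n = 5 per group), bars the mean and SD. Ppargc1a ranges from 36.0 to 268 CPM in exercised vehicle muscle, while Tfam stays between 33.1 and 45.2 CPM in all 20 libraries.

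The first question was how 1 bout of running changes the coactivators. Ppargc1a had the largest response of the 8 genes in vehicle muscle, about 2.5-fold, but with a spread that kept it from passing the test. At rest the vehicle libraries held 58.4, 46.9, 75.2, 26.2 and 23.5 CPM. After exercise they held 148, 36.0, 268, 71.8 and 57.0 CPM. Replicates 1 and 3 lay above every resting library, and the other 3 overlapped the resting range. The means were 46.0 ± 21.8 and 116 ± 94.7 CPM (SD, n = 5 each), a log2 fold change of 1.33 (SE 0.56, 95% interval 0.23 to 2.44, edgeR adjusted p = 0.461). Without exercised vehicle replicate 3 the log2 fold change was 0.76 (adjusted p = 0.791).

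In knockout-labelled muscle Ppargc1a held 67.1, 48.4, 35.8, 41.4 and 87.6 CPM at rest. After exercise it held 73.9, 22.7, 134, 35.9 and 97.9 CPM. Replicates 3 and 5 lay above the resting range and replicate 2 below it. The log2 fold change was 0.38 (SE 0.55, interval -0.71 to 1.47, edgeR adjusted p = 1). The interaction, the response in knockout-labelled minus that in vehicle muscle, was -0.95 (SE 0.78, interval -2.49 to 0.58, adjusted p = 0.95). A difference between the responses was not shown, and the interval also holds equal responses and a response several-fold smaller.

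The level of Ppargc1a followed the slow-fibre score. Libraries with the lowest exercised values, vehicle replicate 2 and knockout-labelled replicates 2 and 4, were the 3 with a score under 1. Mean scores were lower after exercise, at 4.79 against 6.27 in vehicle and 4.29 against 7.25 in knockout-labelled muscle. Neither difference passed (exact permutation tests, adjusted p = 0.9 for both), and the covariate fits adjust the exercise responses for them. With the score as a covariate, the exercise response of Ppargc1a passed in vehicle (log2 fold change 1.54, SE 0.33, adjusted p = 0.0253, 1.83% of all genes called). It did not pass in knockout-labelled muscle (0.94, SE 0.34, adjusted p = 0.401), where 0.0442% of genes were called. The interaction in the covariate fit was -0.59 (SE 0.46, interval -1.49 to 0.30, adjusted p = 0.804). Averaged over both genotypes, a contrast chosen after the data had been seen, the covariate response was 1.24 (SE 0.24, adjusted p = 0.0138, 1.88% of genes called), a 2.36-fold increase. Without the covariate the averaged response was 0.86 (SE 0.39, adjusted p = 0.59, 0.634% of genes called).

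The vehicle call held in 4 of 10 fits that left out 1 library, with adjusted p-values from 0.0047 to 0.120, the highest without exercised vehicle replicate 3. It was also lost when the 3 libraries with a score under 1 were left out (log2 fold change 1.54, adjusted p = 0.0613). The averaged call held without those 3 libraries (1.26, adjusted p = 0.0288) and in 19 of 20 fits without 1 library. It was lost without exercised vehicle replicate 3 (adjusted p = 0.0543). In every fit run, the log2 fold change in vehicle was 0.76 or more.

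Neither relative of PGC-1alpha showed a response to exercise that passed. Ppargc1b ranged from 3.13 to 9.05 CPM over all libraries. Its log2 fold change was -0.27 (SE 0.26, interval -0.78 to 0.25, adjusted p = 0.873) in vehicle and -0.24 (SE 0.26, adjusted p = 1) in knockout-labelled muscle. Pprc1, the most even of the coactivators, had log2 fold changes of -0.02 (SE 0.10, interval -0.22 to 0.17, adjusted p = 0.986) and 0.09 (SE 0.10, adjusted p = 1). The interval for Pprc1 in vehicle does not reach a doubling.

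Perm1, which acts downstream of the coactivators, had vehicle means of 241 ± 85.1 CPM before and 244 ± 99.6 CPM after exercise (SD, n = 5 each). Its values after exercise were 337, 140.1, 364, 179 and 203 CPM, low in the library with the lowest slow-fibre score and high in those with the highest. The log2 fold change was 0.02 (SE 0.32, adjusted p = 0.996), and 0.03 (SE 0.32, adjusted p = 1) in knockout-labelled muscle. With the covariate these were 0.24 (SE 0.13) and 0.48 (SE 0.14), with adjusted p-values of 0.426 and 0.25. The averaged covariate response of 0.36 (SE 0.10, adjusted p = 0.0583) missed the threshold with edgeR.

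The remaining 4 genes did not pass either. In vehicle the log2 fold change of Esrra was 0.18 (SE 0.15, adjusted p = 0.826), that of Esrrg 0.01 (SE 0.62, adjusted p = 0.998), Nrf1 -0.25 (SE 0.14, adjusted p = 0.646) and Tfam -0.01 (SE 0.07, adjusted p = 0.994). In knockout-labelled muscle the corresponding log2 fold changes were -0.21, -0.15, 0.11 and -0.09. Thus 0 of 8 genes were called with exercise in vehicle, where 0.804% of all genes were called, and 0 of 8 in knockout-labelled muscle, where 0% were called. At an unadjusted p under 0.05 these contrasts held 1 and 0 of the 8 genes, against 1209 and 639 of all 13560. DESeq2 and limma-voom likewise called 0 of the 8.

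**Figure D2:**
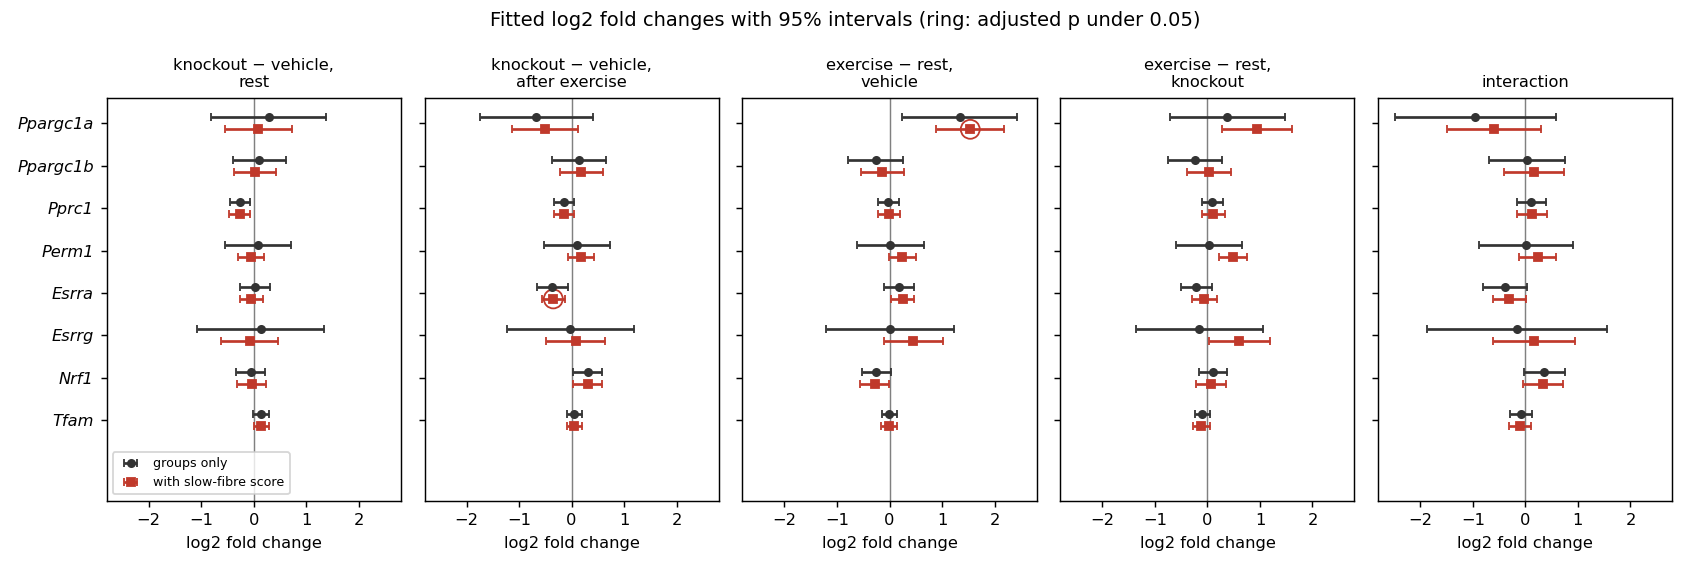
Log2 fold changes (x axis) of the 8 genes (y axis) in the 5 contrasts, from the model with groups only (dark circles) and with the slow-fibre score as a covariate (red squares), each with its 95% interval. Rings mark the 2 estimates with an adjusted p under 0.05, Ppargc1a with exercise in vehicle (1.54) and Esrra by genotype after exercise (-0.35), both in the covariate model.

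The second question was whether knockout-labelled muscle differs at the same state. At rest 0 of 8 genes were called, beside 3.86% of all genes, and after exercise 0 of 8, beside 6.42%. At an unadjusted p under 0.05 there were 1 and 2 of the 8, against 1974 and 2632 of all 13560 genes, and DESeq2 and limma-voom called 0 of the 8 in both. With the covariate 0 were called at rest, beside 6.22%. At rest Pprc1 came nearest. In vehicle at rest its libraries held 27.0, 21.9, 24.6, 19.6 and 19.99 CPM. Knockout-labelled libraries at rest held 19.4, 19.2, 18.4, 18.7 and 18.8 CPM. All 5 lay just below the lowest vehicle library, so under TMM scaling the groups did not overlap, by 19.4 against 19.6 CPM. Relative to library totals alone, resting vehicle replicate 4 (159 of 8815098 counts) lay below resting knockout-labelled replicate 1 (156 of 8045154). The groups then overlapped. The share of all genes without overlap was not computed. The means were 22.6 ± 3.18 and 18.9 ± 0.409 CPM (SD, n = 5 each), a log2 fold change of -0.26 (SE 0.10, edgeR adjusted p = 0.195).

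After exercise the Pprc1 groups overlapped, at 22.2 ± 1.52 and 20.1 ± 2.50 CPM (SD, n = 5 each), and the log2 fold change was -0.15 (SE 0.10, adjusted p = 0.451). Averaged over both states it was -0.20 (SE 0.07, adjusted p = 0.0685), where 11% of all genes were called, and it passed in 3 of 20 fits without 1 library. With the covariate the averaged difference was -0.20 (adjusted p = 0.0503, 16.1% of genes called). Pprc1 shares 177 bases of exon with the opposite-strand gene Ldb1 in GENCODE M21, and as strand use in counting is not stated, reads from either gene cannot be told apart there.

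Esrra, the receptor that serves as a main partner of PGC-1alpha, had a lower mean after exercise in knockout-labelled than in vehicle muscle, a difference that passed only with the slow-fibre score in the model. Exercised vehicle libraries held 156, 109, 145, 102 and 109 CPM. Exercised knockout-labelled libraries held 108, 92.8, 107, 55.1 and 119 CPM. Vehicle replicates 1 and 3 lay above all others, and knockout-labelled replicate 4, the library with the second lowest slow-fibre score of all, lay far below. The means were 124 ± 24.5 and 96.2 ± 24.8 CPM (SD, n = 5 each), and the log2 fold change was -0.37 (SE 0.15, edgeR adjusted p = 0.163).

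With the covariate the Esrra difference was -0.35 (SE 0.11, adjusted p = 0.0471), beside 10.4% of all genes called. This call held in 5 of 10 fits without 1 library, with adjusted p-values of up to 0.158 without exercised vehicle replicate 2. It was lost when libraries were scaled by upper quartile (adjusted p = 0.0631) or by library size only (0.152), and when the 3 libraries with a score under 1 were left out (log2 fold change -0.22, adjusted p = 0.279). At rest the means were 109.7 ± 5.35 and 112 ± 8.81 CPM (SD, n = 5 each), and the log2 fold change was 0.02 (SE 0.15, adjusted p = 0.97). The interaction was -0.39 (SE 0.21, interval -0.81 to 0.02, adjusted p = 0.871), so a difference between the states was not shown. Esrra shares 164 bases of exon with Trmt112 on the opposite strand and Mir6990 on the same strand.

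Nrf1 had a genotype log2 fold change of 0.31 (SE 0.14) after exercise, which did not pass (edgeR adjusted p = 0.224). Its libraries held 9.03, 10.2, 8.06, 8.20 and 9.75 CPM in exercised vehicle and 14.5, 11.7, 10.4, 8.23 and 11.2 CPM in exercised knockout-labelled muscle, and the groups overlapped. At rest the log2 fold change was -0.05 (SE 0.14, adjusted p = 0.923).

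Tfam ranged only from 33.1 to 45.2 CPM. Genotype log2 fold changes were 0.14 (SE 0.07, adjusted p = 0.392) at rest and 0.05 (SE 0.07, interval -0.09 to 0.20, adjusted p = 0.758) after exercise. At rest the upper end of its interval was 0.29.

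Ppargc1a, Ppargc1b, Perm1 and Esrrg had genotype log2 fold changes of 0.29, 0.11, 0.09 and 0.14 at rest, with SEs of 0.56, 0.26, 0.32 and 0.62. After exercise they were -0.67, 0.14, 0.10 and -0.02, with SEs of 0.55, 0.26, 0.32 and 0.62. None passed, with adjusted p-values from 0.558 to 0.993 (edgeR). At rest the intervals of Ppargc1a (-0.81 to 1.38) and Esrrg (-1.07 to 1.35) were too wide to exclude a doubling. After exercise that of Ppargc1a ran from -1.75 to 0.41 and that of Esrrg from -1.23 to 1.19. The interaction called 0 of the 8 genes and 0% of all genes (edgeR), with 0 and 791 at an unadjusted p under 0.05. DESeq2 called 3 genes in all, none of the 8.

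By group mean, Ppargc1a was highest in exercised vehicle, followed by exercised knockout-labelled, resting knockout-labelled and resting vehicle muscle. Pprc1 was highest in resting vehicle, followed by exercised vehicle, exercised knockout-labelled and resting knockout-labelled muscle. Without the covariate, none of the contrasts tested between these groups passed for any of the 8 genes.

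The third pattern concerns the genes' relation to the slow fibres in each sample. Of the 8 genes, 5 rose with the slow-fibre score in the covariate fit, a test added after the data had been seen, beside 12.5% of all genes that rose and 10.6% that fell. Esrrg had the steepest slope, a log2 change of 0.34 per unit of score (SE 0.04, edgeR adjusted p = 1.94e-05). It was followed by Ppargc1a at 0.27 (SE 0.05, adjusted p = 5.22e-04), Perm1 at 0.17 (SE 0.02, adjusted p = 8.18e-07), Ppargc1b at 0.11 (SE 0.03, adjusted p = 0.00632) and Esrra at 0.06 (SE 0.02, adjusted p = 0.00627). Pprc1 (0.01, adjusted p = 0.709), Nrf1 (-0.02, adjusted p = 0.549) and Tfam (-0.01, adjusted p = 0.691) did not pass.

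Without the 3 libraries with a score under 1, only Esrrg (0.35, adjusted p = 0.00713) and Perm1 (0.20, adjusted p = 7.57e-04) passed. Ppargc1a then had a slope of 0.25 (adjusted p = 0.06), Ppargc1b 0.11 (adjusted p = 0.124) and Esrra 0.04 (adjusted p = 0.137). All 5 passed in each of the 20 fits without 1 library.

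Esrrg shows the relation most plainly. Its resting vehicle libraries held 33.6, 30.7, 17.8, 6.64 and 5.66 CPM. Their slow-fibre scores were 8.06, 7.84, 6.94, 6.06 and 2.45, in the same order. In exercised knockout-labelled muscle it held 25.1, 6.59, 27.7, 4.32 and 29.4 CPM, with scores of 5.25, 0.74, 7.08, 0.44 and 7.94. Over the 20 libraries the Pearson correlation of log2 CPM with the score was r = 0.86 (Spearman rho = 0.87, permutation adjusted p = 1.2e-04 over 8 genes), 0.79 without the 2 libraries farthest from the median score and 0.90 after group means were removed.

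Perm1 correlated with the score at r = 0.83 (rho = 0.82, permutation adjusted p = 8e-05) and Ppargc1b at r = 0.72 (rho = 0.63, adjusted p = 0.00123). The unadjusted p of Perm1, 1e-05, was the smallest that 100000 permutations can give. Esrra correlated at r = 0.60 (rho = 0.59, adjusted p = 0.00422) and Ppargc1a at r = 0.57 (rho = 0.54, adjusted p = 0.0139). Without the 2 farthest libraries r was 0.80, 0.66, 0.53 and 0.54 in the same order. For Ppargc1a, r was 0.83 once group means were removed. The correlations of Pprc1 (0.05), Nrf1 (-0.13) and Tfam (-0.02) had adjusted p-values from 0.777 to 0.948.

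**Figure D3:**
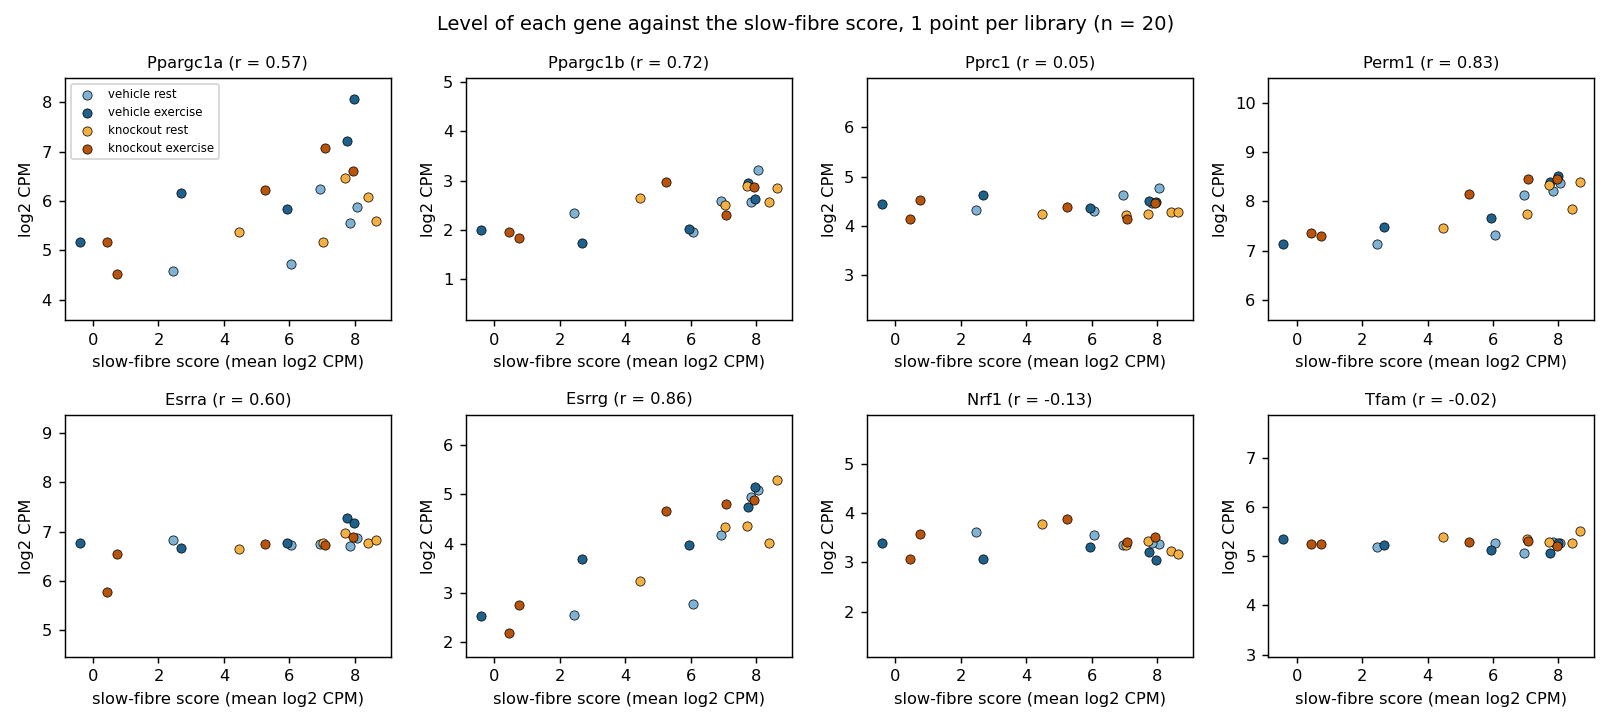
Log2 CPM of each gene (y axis) against the slow-fibre score, the mean log2 CPM of 7 slow-fibre markers (x axis). Each point is 1 of 20 libraries, coloured by group (knockout meaning knockout-labelled). Esrrg (r = 0.86) and Perm1 (r = 0.83) climb with the score, Ppargc1a (r = 0.57) does so with the exercised libraries above the resting ones at scores over 7, and Tfam (r = -0.02) is flat.

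The same 5 genes varied together. Perm1 and Esrrg had r = 0.94 over the 20 libraries (rho = 0.93, permutation adjusted p = 2.8e-04 over 28 pairs), and 0.92 without the 2 libraries farthest from the median of Perm1. Ppargc1a and Perm1 had r = 0.79 (rho = 0.82, adjusted p = 7e-04), 0.78 without the 2 farthest and 0.89 after group means were removed. Between Ppargc1b and Perm1 r was 0.76 (rho = 0.66, adjusted p = 0.00159), 0.73 without the 2 farthest. Ppargc1a and Ppargc1b were less close, with r = 0.45 (permutation adjusted p = 0.125) and rho = 0.54 (permutation adjusted p = 0.0497). After group means were removed, r of this pair was 0.70. All of these genes share the slow-fibre relation above, and how far the pairs move together apart from it was not tested. Tfam and Nrf1 had r = 0.09 (rho = 0.19, adjusted p = 0.809).

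**Figure D4:**
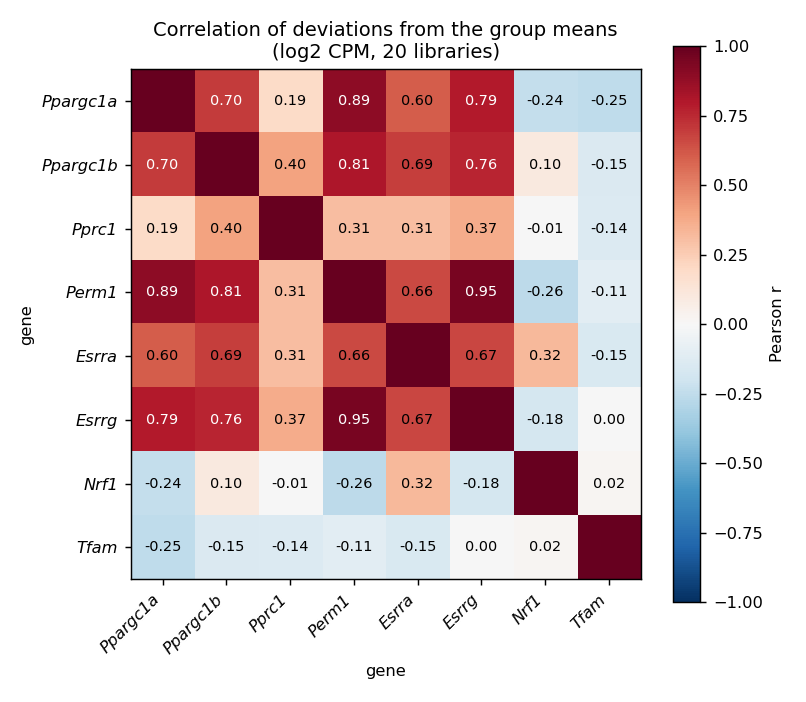
Pearson correlations of each pair of genes (both axes) over 20 libraries, computed from log2 CPM after group means were removed, with colour from blue (-1) to red (1). Ppargc1a, Ppargc1b, Perm1, Esrra and Esrrg form a block of positive values from 0.60 to 0.95, and the values of Nrf1 and Tfam with the other genes lie between -0.26 and 0.32.

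For each gene, the 3 most similar of all genes tested were found by r of log2 CPM over the 20 libraries, given as a description, since the libraries share groups and fibre make-up. Those of Esrrg were Acadl (0.99), Lpl (0.98) and Nceh1 (0.97). Acadl encodes a mitochondrial acyl-CoA dehydrogenase and Lpl encodes lipoprotein lipase. Enah, Fads6 and Fgf1 were nearest to Perm1, each with 0.96. Nearest to Ppargc1a were A930028N01Rik (0.91), Ldhd (0.89), a mitochondrial lactate dehydrogenase, and Ciapin1 (0.88). Ppargc1b was nearest to Atpaf1 (0.88), an assembly factor of ATP synthase, Ephx1 (0.86) and Itpr2 (0.85).

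Esrra was nearest to Ybx2 (0.92), Pex5 (0.90), the import receptor of peroxisomes, and Paqr4 (0.89). For the genes without a slow-fibre relation the nearest match was less close, though for Nrf1 only just below the 0.88 of Ppargc1b. The highest r was 0.74 for Pprc1 (Atxn1, Ascl4 and Naa60), 0.87 for Nrf1 (D830039M14Rik, then Ewsr1 and Large2) and 0.80 for Tfam (Pggt1b, then Rgs2 and Rsbn1). Under scaling by library size only, 13 of these 24 genes were named again.

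The wider pathway was read through 5 lists holding 88 genes, of which 87 were tested. With exercise in vehicle, 2 passed (2.3%, beside 0.804% of all genes), both higher and both encoding transcription factors that PGC-1 works with. Nfe2l2, the oxidative stress factor also called NRF2, held 38.0, 34.6, 43.4, 28.1 and 29.5 CPM at rest and 57.0, 57.7, 78.8, 79.1 and 53.3 CPM after exercise, without overlap. Its log2 fold change was 0.91 (SE 0.14, adjusted p = 0.00179), and the call held in all 10 fits without 1 library. Foxo1, a factor of the fasting and atrophy response, went from 26.6 ± 8.37 to 71.1 ± 29.4 CPM (SD, n = 5 each), a log2 fold change of 1.42 (adjusted p = 0.0287). The Foxo1 call held in 4 of 10 fits without 1 library, with adjusted p-values of up to 0.0943 without resting vehicle replicate 5. In knockout-labelled muscle 0 of the 87 passed with exercise (edgeR), beside 0% of all genes. At an unadjusted p under 0.05 there were 8, against 639 of all 13560 genes.

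By genotype, 3 of the 87 list genes passed at rest (3.45%, beside 3.86% of all genes) and 6 after exercise (6.90%, beside 6.42%). These shares are close to those of all genes. Thra, the thyroid hormone receptor alpha that can recruit PGC-1alpha, was higher in both. It held 54.4, 59.0, 54.1, 73.6 and 68.3 CPM in resting vehicle and 101, 76.0, 81.8, 82.3 and 101 CPM in resting knockout-labelled muscle, without overlap. The log2 fold change was 0.52 (SE 0.11, adjusted p = 0.00724) at rest and 0.75 (adjusted p = 1.44e-04) after exercise, and both calls held in all 10 fits without 1 library. Thra shares 263 bases of exon with the opposite-strand clock gene Nr1d1.

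Cycs, which encodes cytochrome c and is a classical target of PGC-1 and NRF1, was also higher in both states. Means of 243 ± 34.0 and 343 ± 41.9 CPM at rest differed by 0.50 on the log2 scale (SE 0.11, adjusted p = 0.0055). After exercise 265 ± 28.6 and 346 ± 26.5 CPM differed by 0.38 (SE 0.10, adjusted p = 0.0289; SD and n = 5 for each mean). The second call held in 3 of 10 fits without 1 library, with adjusted p-values of up to 0.0787 without exercised vehicle replicate 2. Without the 3 libraries with a low slow-fibre score it was lost (0.36, adjusted p = 0.132).

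Nrip1, encoding the corepressor RIP140 that opposes PGC-1, was lower after exercise. Exercised vehicle libraries held 44.0, 79.0, 62.9, 61.8 and 68.0 CPM and exercised knockout-labelled libraries 34.7, 25.0, 26.5, 41.3 and 28.8 CPM. No knockout-labelled library reached the lowest vehicle library. The log2 fold change was -1.02 (SE 0.18, adjusted p = 0.0014), and the call held in all 10 fits without 1 library and without the 3 low-score libraries (-0.98, adjusted p = 0.0135). At rest it was -0.60 (SE 0.19, adjusted p = 0.0846).

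The other 4 calls did not pass when the 3 libraries with a low slow-fibre score were left out. After exercise Foxo1 (-1.14, adjusted p = 0.0245) and Nfe2l2 (-0.57, adjusted p = 0.0143) were lower. Tfb2m, which encodes a transcription factor of mitochondrial DNA, was higher (0.32, adjusted p = 0.0277). At rest Pdk4, the kinase that restrains pyruvate oxidation, was higher (0.88, adjusted p = 0.0478). Without the 3 low-score libraries the log2 fold changes of these 4 genes were -0.85, -0.42, 0.21 and 0.87, with adjusted p-values of 0.262, 0.129, 0.297 and 0.0947. All 3 libraries were exercised, so none belonged to the resting contrast of Pdk4, whose estimate hardly moved. Leaving out 1 library at a time kept the Pdk4 call in 2 of 10 fits, and its adjusted p reached 0.174 without resting knockout-labelled replicate 2. The Foxo1 and Tfb2m calls were kept in 6 of 10 fits each and the Nfe2l2 call in all 10. In the interaction 0 of the 87 passed (edgeR), beside 0% of all genes. At an unadjusted p under 0.05 there were 3, against 791 of all 13560 genes.

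**Figure D5:**
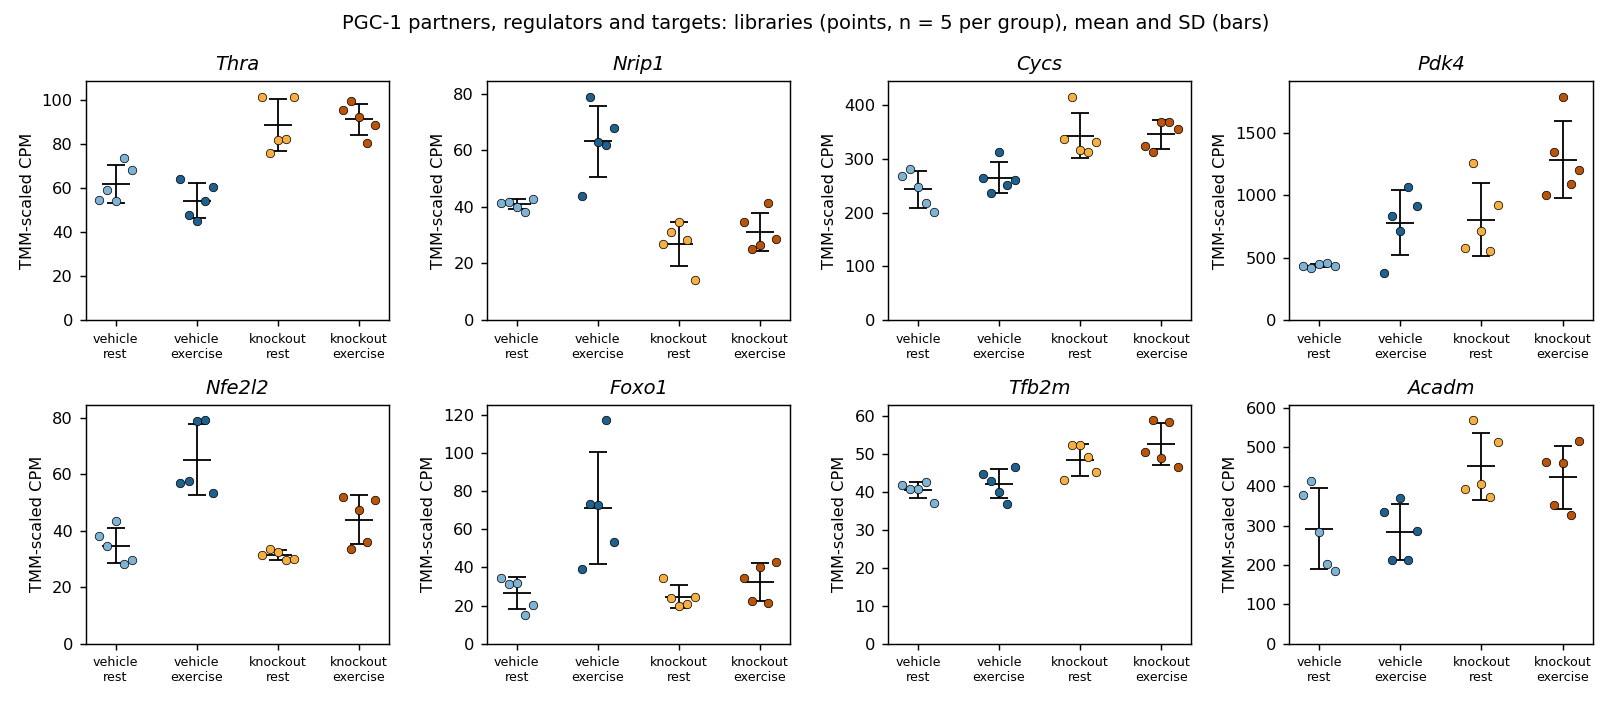
TMM-scaled CPM (y axis) of 8 genes of the pathway lists in the 4 groups (x axis, knockout meaning knockout-labelled), with libraries as points (n = 5 per group) and mean and SD as bars. Thra and Cycs sit higher and Nrip1 lower in the knockout-labelled groups, and Nfe2l2 and Foxo1 sit highest in exercised vehicle muscle.

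Target genes of PGC-1 and the oestrogen-related receptors moved with the slow-fibre score as their regulators did: 16 of 20 (80.0%, beside 23.1% of all genes) passed and all 16 rose, with a median slope of 0.07 over the 20 genes beside 0.00 over all genes. Among them were Mb, the oxygen store myoglobin (0.44 per unit of score, adjusted p = 2.4e-06), and Ckmt2, the mitochondrial creatine kinase (0.17, adjusted p = 2.53e-06). Acadvl, an enzyme of fatty acid oxidation (0.14, adjusted p = 1.64e-06), and Sdhb, a subunit of complex II (0.13, adjusted p = 3.11e-06), also rose. Of 18 transcription factor partners, 4 rose and 1 fell, 27.8% in all and near the 23.1% of all genes. Esrrb, the remaining oestrogen-related receptor, had the steepest slope of these (0.47, adjusted p = 8.15e-07), followed by Ppara (0.39, adjusted p = 4.3e-05).

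Of 23 upstream kinases, deacetylases and corepressors, 8 passed and all 8 fell with the score (34.8%, beside 10.6% of all genes that fell). Prkag3, a regulatory subunit of AMP-activated kinase (AMPK) typical of fast muscle, had a slope of -0.19 (adjusted p = 1.02e-04). Prkab2, another AMPK subunit, had -0.09 (adjusted p = 5.99e-06), and Camk2a, a calcium-dependent kinase, had -0.10 (adjusted p = 6.24e-06). For mitochondrial fusion and fission 2 of 11 genes rose (18.2%, beside 12.5% of all genes), Mfn1 (0.08, adjusted p = 3.35e-05) and Mtfp1 (0.08, adjusted p = 6.91e-05). Of the 15 genes of mitochondrial DNA transcription and replication, 0 passed (edgeR), beside 23.1% of all genes. At an unadjusted p under 0.05 there was 1, against 4757 of all 13560 genes. Without the 3 low-score libraries 27 of the 87 list genes passed, against 31 with all libraries.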

How the data were processed

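RNA-seq was done on 20 gastrocnemius samples in 4 groups of 5. The authors deposited 1 table of whole-number counts per gene symbol. Per the submitters' processing notes, STAR 2.7.8a, Partek and DESeq2 were used and the builds mm10 and GRCm39 were named without a role, so coordinates here refer to RefSeq's GRCm38.p6. The counting program, annotation and strandedness are not given in the sources used here. Of 53311 rows, 106 were repeated symbols, kept apart, and every per-sample column was assigned. Nothing in the labels says which samples came from separate animals, so p-values measure the spread between these samples. Intervals cover counting and sample spread as modelled.

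Groups came from the sample titles. The 13560 genes kept by filterByExpr of edgeR 4.0.16 (minimum 10 counts) held 99.83% of all counts. TMM scaling and a robust quasi-likelihood model with 1 mean per group were fitted to all 20 samples in R 4.3.3. The 5 contrasts were tested with Benjamini-Hochberg adjustment over all genes at 0.05, and 2 averaged contrasts and the slope on the slow-fibre score were added after the data had been seen. Standard errors come from the F statistics. The 95% intervals are the estimate ± 1.96 SE, an approximation narrower than the F test implies. In the covariate fit the exercise response of Esrrg in knockout-labelled muscle had an interval of 0.03 to 1.18. Its quasi-likelihood F test gave an unadjusted p of 0.0555. Log2 CPM used a prior count of 2. Tissue scores were compared over all 252 relabellings (smallest p 0.00794), and correlations used 100000 permutations. These permutations mixed all 20 libraries across the 4 groups, so their p-values do not take the groups into account. Adjusted p-values of correlations belong to r unless given for rho, and r after removal of group means was not tested. The closest libraries within each group differed by more than sampling noise. The fit without the covariate was also run on simulated counts that changed only the resting knockout group, so the covariate fit was not tested in this way. Exon lengths and overlaps come from GENCODE M21, which need not be the authors' annotation.

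The 8 genes and the lists were chosen with earlier results of these data known. All 8 genes were named throughout. From each list, at most the 4 called genes with the smallest adjusted p per contrast could be named. Alternatives were RLE, upper-quartile and library-size scaling, DESeq2 1.42.0, limma-voom (limma 3.58.1), no filter or a minimum of 30 counts, only both groups of a contrast, the replicate number as a block, mitochondrial-genome genes left out, the slow-fibre covariate and each replicate left out. Combinations with the covariate, and leaving out the 3 libraries with a score under 1, were added after seeing the data.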

Additional observations from a re-analysis of the deposited data

Results flagged for a closer look

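A library far from the rest was sought in each of 84 groups of 5 libraries. These covered the 8 genes, Arntl, the list genes called without the covariate and the slow-fibre score. Chance gives such a library in about 1 of 20 groups. A single group stood out. In resting knockout-labelled muscle, replicate 2 had 416 CPM of Cycs (415.998 before rounding), while the next library had 338 CPM. The gap made up 0.761 of the range, above the critical value of 0.71. Without this library the genotype difference of Cycs at rest still passed (edgeR adjusted p = 0.0263).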

How the results depend on the processing

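No alternative reversed the direction of a called value. Of the 8 genes, 0 were called in each of the 5 contrasts under every scaling, tool, filter and choice of samples tried without the covariate. With the slow-fibre score as a covariate, 1 was called by genotype after exercise (Esrra), 1 with exercise in vehicle and 1 with exercise averaged over genotypes (Ppargc1a both times). For genotype averaged over states, 1 gene was called under the stricter filter and 0 to 1 without 1 library. In the covariate fits of that contrast 1 was called under RLE scaling, 1 without mitochondrial-genome genes and 0 to 1 without 1 library. By genotype after exercise with the covariate, 0 were called under upper-quartile scaling, 0 under library size only, 0 without the 3 low-score libraries and 0 to 1 without 1 library. With exercise in vehicle and the covariate, 0 were called without the 3 low-score libraries and 0 to 1 without 1 library. With averaged exercise and the covariate, limma-voom called 2, and 0 to 2 were called without 1 library. The slope called 2 of the 8 without the 3 low-score libraries, against 5. The likeness list kept 13 of 24 genes under library size only.

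Over all genes, several counts moved by over 1.5 times. With the covariate they went from 523 to 844 by genotype at rest, from 870 to 1415 after exercise, from 109 to 248 with exercise in vehicle, from 0 to 6 with exercise in knockout-labelled muscle and from 86 to 255 for averaged exercise. Fitting only both groups of a contrast gave 567 by genotype after exercise and 61 with exercise in vehicle. Leaving out the 3 low-score libraries gave 411 by genotype after exercise, 140 for averaged exercise and 1371 for the slope, against 3126. The interaction called 0 genes with edgeR and 3 with DESeq2.

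Replicate numbers did not pair the samples consistently. Deviations of same-numbered samples correlated with a median r of 0.089 over 30 pairs (-0.448 to 0.437). Of these, 15 were over 0.1 and 13 under 0, and in 7 the same-numbered sample was the best match. Between exercised vehicle and exercised knockout-labelled samples every same-numbered r was positive (0.0185 to 0.437), though none was the best match. A pairing was therefore neither shown nor excluded. With the replicate block and the covariate, 0 of the 8 genes were called with exercise in vehicle (Ppargc1a log2 fold change 1.45, adjusted p = 0.0534), 0 with averaged exercise (1.10, adjusted p = 0.0702) and 3 by the slope, where Ppargc1b (adjusted p = 0.148) and Esrra (0.156) were lost and 1731 of all genes were called. With the block and no covariate, Foxo1 was lost with exercise in vehicle (1.45, adjusted p = 0.0855), leaving 1 list gene called of 2, and by genotype after exercise (-1.16, adjusted p = 0.0635). Depth limits Ppargc1b most, with 27 to 83 counts per library.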
